A study of Mus musculus with 89 samples.

Results

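Small nucleolar RNAs (snoRNAs) and the genes that carry them were examined in RNA-seq counts from mouse embryonic stem cells depleted of a histone variant. The rows were those whose symbol begins with Snora, Snord or Snhg followed by a digit, 131 of the 26276 named rows of the count table. They fell into 38 H/ACA snoRNAs (Snora), 76 box C/D snoRNAs (Snord) and 17 snoRNA host genes (Snhg). The choice used symbols only, and 130 of the 131 matched a RefSeq gene of mouse assembly GRCm38.p6, Snord116 being the exception.

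V6.5, a line of male mouse embryonic stem cells, was cultured with LIF and inhibitors of MEK and GSK3. In both groups the gene H2afz, which encodes the histone H2A.Z.1, carried an FKBP-V tag. In the dTAG group, 3 libraries, cells received the dTAG molecule, which binds the tag and sends the tagged protein to the proteasome, and the Control group, 3 libraries, did not. The time of treatment is not given for the RNA-seq samples, nothing in the labels says that libraries of a group came from separate cultures, and the related protein H2A.Z.2 is still encoded in both groups, and the p-values given here reflect only how far these libraries scatter, which may be technical. The comparison asks what loss of H2A.Z.1 does to transcript levels, and the H2afz transcript does not check it, since dTAG acts on the protein: H2afz had 107, 56.3 and 35.9 counts per 1000000 counts in named rows (CPM) in dTAG replicates 1, 2 and 3, against 78.8, 81.9 and 95.7 CPM in Control replicates 1, 2 and 3.

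snoRNAs are short nuclear RNAs that guide chemical modification of ribosomal RNA. Box C/D snoRNAs bind the methyltransferase fibrillarin and direct methylation of ribose, H/ACA snoRNAs bind the pseudouridine synthase dyskerin and direct pseudouridylation, and a few members of both classes act instead in cutting the ribosomal RNA precursor. In mammals most snoRNAs are trimmed out of introns of another gene. That host either encodes a protein, often a ribosomal protein or another factor of translation, or is a noncoding Snhg gene whose spliced transcript is in several cases a target of nonsense-mediated decay. Levels of a snoRNA and of the spliced host RNA can therefore differ although both begin in a single transcript.

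The RefSeq sequences at hand covered a snoRNA only where an annotated microRNA hairpin lies inside it, which held for 4 members, and they are shown because they carry the features that define the classes. Capitals mark the box C of Snord33 (GUGAUGA, from base 6) and the ACA that stands 3 bases before the end of an H/ACA snoRNA. All are given 5′ to 3′ on the strand of the hairpin in GRCm38.p6. The stretch of Snord33 is chr7:45126918-45126945 on the minus strand and holds the first 28 of its 82 bases.
Snord33: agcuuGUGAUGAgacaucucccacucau
The stretch of Snora34 is chr15:98519762-98519834 on the minus strand, holds the first 73 of 118 bases, and so has no end to mark.
Snora34: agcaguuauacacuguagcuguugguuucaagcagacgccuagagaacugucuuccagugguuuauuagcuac
Snora36b is shown by its last 64 of 113 bases, chr1:185242975-185243038 on the plus strand, and Snora19 by all 56 annotated bases, chr19:60774330-60774385 on the minus strand.
Snora36b: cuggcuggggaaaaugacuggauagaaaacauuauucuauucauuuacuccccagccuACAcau
Snora19: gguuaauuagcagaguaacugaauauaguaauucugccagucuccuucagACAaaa

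The 6 libraries were of unequal depth and content. Counts in named rows were 12907095, 2131648 and 1812405 in dTAG replicates 1, 2 and 3, against 14244326, 15652795 and 14091745 in Control replicates 1, 2 and 3, so that a count of 0 allows up to 0.232, 1.41 and 1.66 CPM in the dTAG libraries and up to 0.213 CPM in the controls. dTAG replicates 2 and 3 also stood apart in what they held. Of 1462 olfactory and vomeronasal receptor rows, genes that stem cells do not use, 23.5%, 71.5% and 97.0% had a count in dTAG replicates 1, 2 and 3, against 10.9%, 11.2% and 18.2% in the controls. The 12 fibroblast markers summed to 61.4, 213 and 646 CPM in dTAG replicates 1, 2 and 3, against 42.7 to 61.3 CPM in the controls, where Col3a1 was at 0. The 8 stem cell markers, all detected in every library, summed to 2585, 1537 and 470.1 CPM, against 2334 to 2459 CPM. Of the 1462 receptor rows, 76 passed the filter on low counts and were tested. The 1012 at 0 in every control could pass it only through dTAG libraries, which favours a high median. Relative to all genes, the median log2 fold change over the 6 libraries was 5.30 for these 76 receptor rows, 1.29 for 8 tested fibroblast markers and -1.09 for the stem cell markers. The part of these differences in the results that follow was not tested. Every dTAG library is therefore given on its own, and every count with and without dTAG replicates 2 and 3. In bulk RNA, fewer cells of a kind and less RNA per cell cannot be told apart.

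In dTAG replicate 1, the library nearest to the controls in content, the summed snoRNAs and host genes were within the range of the controls, while in dTAG replicates 2 and 3 both snoRNA classes were lower and the host genes less so. Box C/D snoRNAs together had 3032, 1993 and 125.8 CPM in dTAG replicates 1, 2 and 3, against 3421, 2801 and 3011 CPM in the controls, that is 98.5%, 64.8% and 4.09% of the control mean of 3077 ± 315 CPM (SD, n = 3). H/ACA snoRNAs had 1323, 976.2 and 487.2 CPM, against 1430, 1236 and 1318 CPM, or 99.7%, 73.5% and 36.7% of the control mean of 1328 ± 97.2 CPM. The 17 Snhg genes had 392.8, 307.7 and 223.5 CPM, against 393.6, 351.9 and 367.4 CPM, or 105.9%, 82.96% and 60.2% of the control mean of 371.0 ± 21.1 CPM. Thus dTAG replicate 1 lay inside the range of the controls for the snoRNA classes and for the host genes, and dTAG replicates 2 and 3 lay below it in each case. Wilson 95% intervals, which cover counting error only, were 110.5 to 143.2 CPM for box C/D, 456.1 to 520.4 CPM for H/ACA and 202.7 to 246.3 CPM for Snhg genes in dTAG replicate 3, each wholly under the lowest control. With 3 libraries against 3 a two-sided exact test of a single sum cannot go below p = 0.1, and none was run.

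**Figure D1:**
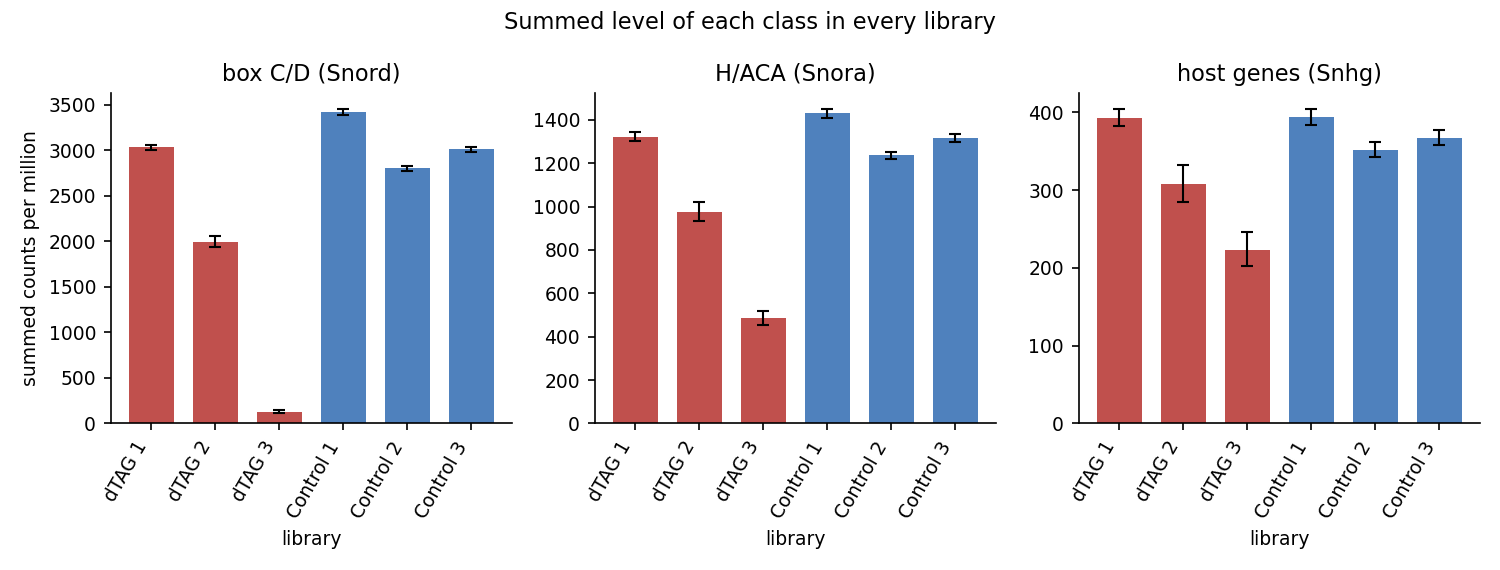
Summed CPM of box C/D snoRNAs, H/ACA snoRNAs and Snhg host genes (panels) in each of the 6 libraries (x axis, dTAG left of Control), with Wilson 95% intervals for counting error. dTAG 1 sits among the controls in all 3 panels, and dTAG 3 is at 125.8 CPM for box C/D and at 223.5 CPM for host genes.

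The 2 snoRNA classes differed from each other in dTAG replicate 3 mainly through 1 gene. Snora81, which guides pseudouridylation of large-subunit ribosomal RNA and lies in Eif4a2, had 130, 190 and 409 CPM in dTAG replicates 1, 2 and 3, against 157, 106 and 114 CPM in the controls. It made up 84.0% of all H/ACA CPM in dTAG replicate 3, against 8.62% to 11.01% in the controls. Without it, a split chosen after its value was seen, the H/ACA sum was 1193, 786.2 and 77.8 CPM in the dTAG libraries, or 99.3%, 65.4% and 6.47% of the control mean of 1202 ± 71.4 CPM. The height of Snora81 depended on the scaling: with library totals multiplied by TMM factors, which correct for composition, it had 165, 155 and 177 CPM in the dTAG libraries, against 196, 144 and 152 CPM, and the groups overlapped. edgeR's quasi-likelihood test gave it a log2 fold change of 0.02 (SE 0.53, adjusted p = 0.983). Its neighbour in the same host, the box C/D snoRNA Snord2, did not share the height: its log2 ratio to the control mean, on CPM + 1, was -2.40 in dTAG replicate 3, where that of Eif4a2, an RNA helicase of translation initiation, was -3.36 and that of Snora81 was 1.69. With TMM scaling the class sums were a smaller share of the control mean than on CPM in every dTAG library, though host genes stayed above it in dTAG replicate 1. Box C/D stood at 95.7%, 40.5% and 1.35% of the control mean in dTAG replicates 1, 2 and 3, H/ACA at 96.7%, 45.9% and 12.1%, and host genes at 102.7%, 51.8% and 19.9%.

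Of the 131 members, 82 had a mean of at least 5 CPM in the controls (39 box C/D, 29 H/ACA, 14 Snhg), 42 were lower but had a count, and 7 had no count in any library (Snord1a, Snord7, Snord45c, Snord93, Snord116l2, Snora24 and Snora26). Of the 82, dTAG replicate 1 was below every control for 18 (22.0%), against 18.7% of the 11069 rows at this level, and above every control for 16 (19.5%), against 29.0% of rows, both near or below the share of other genes. In dTAG replicate 2, 69 were below every control, 35 of 39 box C/D and 26 of 29 H/ACA but 8 of 14 Snhg, against 35.1% of all such rows, and 6 were above, against 45.7%. In dTAG replicate 3, 77 were below, 38 box C/D, 28 H/ACA and 11 Snhg, against 35.5% of rows, and 4 were above, against 56.8%. With TMM scaling 31, 80 and 80 of the 82 were below every control in dTAG replicates 1, 2 and 3, against 24.6%, 63.0% and 66.2% of rows on that scale. Most members were below every control in dTAG replicates 2 and 3, so a count over all 3 libraries mostly follows dTAG replicate 1. All 3 dTAG libraries were below all 3 controls for 16 members, against 5.17% of rows, or for 31 with TMM scaling, against 15.8% of rows. On CPM these were 10 box C/D snoRNAs (Snord14d, Snord16a, Snord49a, Snord49b, Snord55, Snord72, Snord100, Snord104, Snord111 and Snord118), 4 H/ACA snoRNAs (Snora5c, Snora17, Snora62 and Snora70) and Snhg3 and Snhg14; 0 of the 82 had all dTAG libraries above the controls, against 13.3% of rows, and Snhg18, under 5 CPM, was the 1 member that did.

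The median log2 ratio to the control mean over these members was -0.07 for box C/D, -0.04 for H/ACA and -0.07 for Snhg in dTAG replicate 1, where all 11069 rows had 0.03. It was -0.67, -0.57 and -0.43 in dTAG replicate 2, against 0.10 over all rows, and -3.67, -3.63 and -1.13 in dTAG replicate 3, against 0.52. When each control was set against the mean of the other 2, class medians lay between -0.23 and 0.25, so the values in dTAG replicate 1 were within the scatter of the controls. In dTAG replicate 3 the box C/D members spanned -5.68 to -0.07 and the H/ACA members -5.45 to 1.69. There, 45 of the 82, all snoRNAs (28 box C/D and 17 H/ACA), had 3 counts or fewer, against 1.35% of rows, and 10 had none. Snora34, printed above, was one of those 10: it had 29.7, 19.2 and 0 CPM in the dTAG libraries, against 44.4, 32.8 and 29.1 CPM, and was at least 21.4-fold lower in dTAG replicate 3 at the floor of 3 counts. The order of the members by level was nearly that of the controls in dTAG replicate 1 (Spearman's rho 0.981 over 82 members) and in dTAG replicate 2 (0.924), and was kept in part in dTAG replicate 3, at 0.567 over the 68 snoRNAs and 0.399 over all 82; the members share their libraries, so these values are descriptive.

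**Figure D2:**
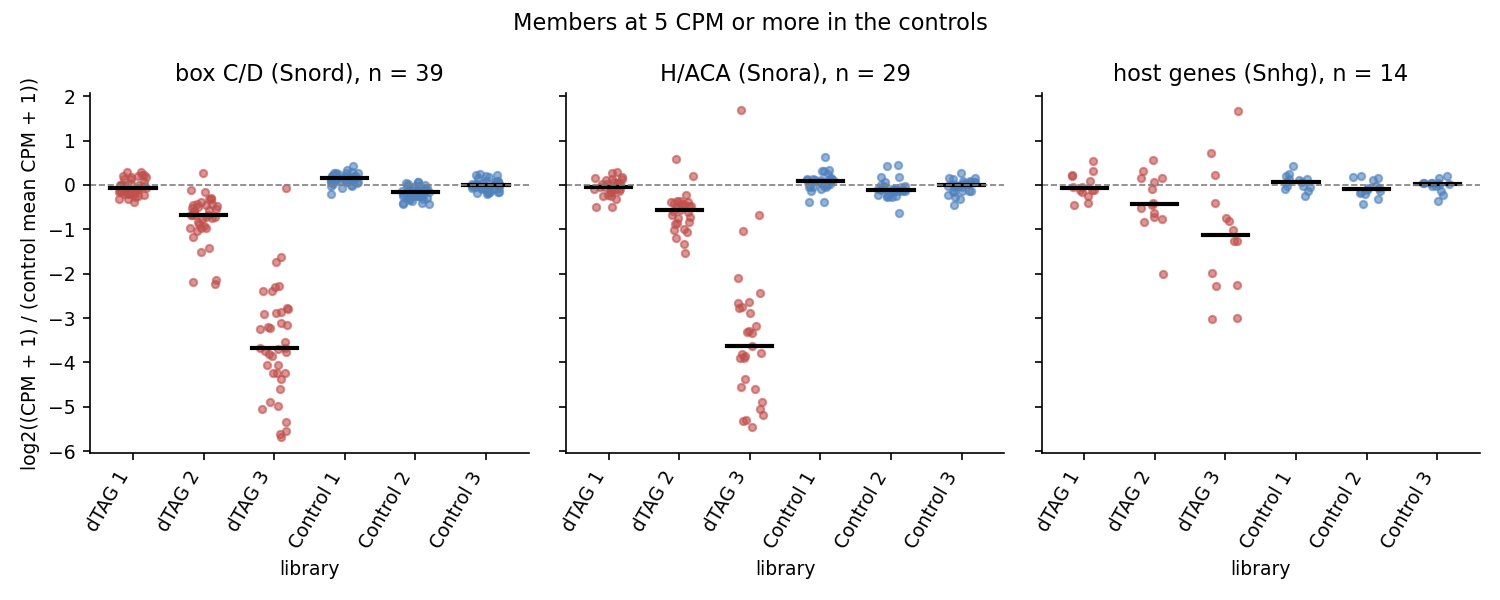
Log2 ratio of each member's CPM + 1 to the control mean + 1 (y axis) in each library (x axis, dTAG left of Control), for members at 5 CPM or more in the controls; points are genes and bars are medians. Ratios in dTAG 1 scatter around 0 as the controls do, and snoRNA medians in dTAG 3 are -3.67 and -3.63 while the Snhg median is -1.13.

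Over all 6 libraries, edgeR called none of the 112 tested members at an adjusted p under 0.05, and 0% of the 18116 tested genes. At an unadjusted p under 0.05 there were 0 members, against 23.2% of genes. DESeq2 called 0 of the 114 members to which it gave an adjusted p, against 22.9% of genes, nearly all of them higher. Of the 112, 108 had a log2 fold change below 0. The share of all 18116 tested genes below 0 was not counted, and their median was 0.16. With TMM scaling, 63.0% and 66.2% of rows at 5 CPM or more were below every control in dTAG replicates 2 and 3. The class medians relative to the median of all genes were -1.26 for box C/D, -1.25 for H/ACA and -0.98 for Snhg. Without dTAG replicate 1, that is on the 2 libraries that stood apart, 67 of 113 members fell and 0 rose. The 67 were 34 of 63 box C/D, 21 of 33 H/ACA and 12 of 17 Snhg. Of all genes tested in that fit, 19.8% were called lower and 40.0% higher. The filter let through 22093 genes there, against 18116 over the 6 libraries. A gene at 0 in every control could pass only through the dTAG libraries, which favours calls of higher. These shares are therefore not a like-for-like background for the members, and they were not recomputed on the 18116 genes. With dTAG replicate 1 alone against the controls, a fit that assumes that a lone library varies as the controls do, 0 of 115 members were called, against 0.0882% of genes, and 1 had an unadjusted p under 0.05, against 5.74% of genes. That member was Snhg12, with a log2 fold change of 0.47 (adjusted p = 0.857). Relative class medians in that fit were -0.14 for box C/D, -0.10 for H/ACA and -0.14 for Snhg.

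Among box C/D snoRNAs, a few long and abundant members carried the class. Snord15b, a U15 copy in an intron of the ribosomal protein gene Rps3 that guides methylation of large-subunit ribosomal RNA, had 769, 505 and 14.9 CPM in dTAG replicates 1, 2 and 3, against 836, 681 and 695 CPM in the controls. Snord22, the U22 RNA of Snhg1, known in Xenopus for its part in maturation of small-subunit ribosomal RNA, had 645, 452 and 16.0 CPM, against 767, 624 and 662 CPM. Snord15a, the second U15 copy of Rps3, had 503, 309 and 9.38 CPM, against 511, 497 and 515 CPM. For all 3, dTAG replicate 1 was inside or close to the control range and dTAG replicates 2 and 3 were below it. edgeR gave log2 fold changes of -1.05 (SE 1.45, adjusted p = 0.600) for Snord15b, -1.17 (SE 1.40, adjusted p = 0.552) for Snord22 and -1.16 (SE 1.38, adjusted p = 0.549) for Snord15a, none past the threshold. Together they held 63.2%, 63.5% and 32.02% of box C/D CPM in the dTAG libraries, against 61.8% to 64.3% in the controls. Snord17, in the gene of the sorting nexin Snx5, had 125, 82.1 and 6.07 CPM, against 151, 119 and 125 CPM, and Snord33, in Rpl13a, had 118, 72.7 and 2.76 CPM, against 136, 97.9 and 118 CPM.

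Besides Snord22, the Snord members chosen for a part in ribosomal RNA maturation other than methylation were less abundant. Snord118 (U8), needed in Xenopus for maturation of large-subunit ribosomal RNA, had 18.5, 15.0 and 0.552 CPM in dTAG replicates 1, 2 and 3, against 23.2, 22.3 and 19.0 CPM in the controls, and all dTAG libraries were below all controls. Snord13 (U13) had 47.5, 8.44 and 2.21 CPM, against 46.1, 34.9 and 44.6 CPM, with dTAG replicate 2 already well under the controls. Snord118, Snord13 and Snord89 were the 3 snoRNAs with RefSeq spans that lay in no other gene. The U14 RNAs, essential in yeast for small-subunit ribosomal RNA, differed in level among themselves: Snord14d had 58.2, 46.0 and 1.10 CPM, against 84.0, 58.5 and 65.1 CPM, and Snord14c had 29.1, 18.3 and 0.552 CPM, against 46.8, 27.2 and 36.0 CPM. Snord14a and Snord14e averaged 5.95 and 5.45 CPM in the controls and had 0.469 CPM each, a single count, in dTAG replicate 2. Reads of such related copies may have been split between rows by the counting, so single copies are uncertain. Of the 2 members with the smallest unadjusted p among those lower, Snord104 had 17.0, 12.2 and 1.66 CPM, against 23.7, 20.4 and 23.4 CPM (log2 fold change -1.43, SE 0.84, adjusted p = 0.349), and Snord16a had 14.4, 9.38 and 1.66 CPM, against 17.97, 14.8 and 21.9 CPM. The tested box C/D snoRNA with a positive fold change, Snord35b, had 4.11, 2.35 and 8.28 CPM, against 2.95, 1.85 and 2.06 CPM (log2 fold change 0.28, SE 0.74, adjusted p = 0.783).

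The imprinted snoRNAs were close to silent. Snhg14, the long transcript of the imprinted Prader-Willi region that is best known from neurons, had 7.44, 1.88 and 7.72 CPM in dTAG replicates 1, 2 and 3, against 12.2, 11.4 and 7.95 CPM in the controls, all dTAG values being below all control values (log2 fold change -1.47, SE 0.68, adjusted p = 0.244). Its snoRNAs were lower: Snord64 had 2.63, 0 and 1.10 CPM, against 0.983, 2.30 and 3.05 CPM, and Snord116l1 had 1.16, 0.469 and 0 CPM, against 0.632, 0.894 and 1.77 CPM. Snord116 itself had counts only in Control replicate 3, at 0.213 CPM, and Snord116l2 had none. Without dTAG replicate 1, edgeR called Snhg14 lower (log2 fold change -2.72, adjusted p = 0.00226) and Snord64 lower (-3.58, adjusted p = 0.0433). That fit rests on the 2 libraries that stood apart, and 19.8% of all genes tested in it were called lower. Snord64 had 0 and 2 counts in those libraries, near the floor, and its value in dTAG replicate 1 was within the range of the controls.

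H/ACA snoRNAs were spread more evenly. Snora21, in an intron of Rpl23, had 192, 112 and 3.86 CPM in dTAG replicates 1, 2 and 3, against 198, 179 and 192 CPM in the controls (log2 fold change -1.14, SE 1.24, adjusted p = 0.519). Snora73a and Snora73b, the U17 RNAs of Snhg3 that take part in cutting the precursor of small-subunit ribosomal RNA, had 123, 90.1 and 3.31 CPM, against 136, 116 and 127 CPM, and 79.3, 43.2 and 3.86 CPM, against 77.1, 67.3 and 71.2 CPM. Snora74a, of Snhg4, had 107, 72.7 and 3.31 CPM, against 103, 108 and 99.5 CPM, and Snora23, of the importin gene Ipo7, had 70.8, 40.8 and 2.21 CPM, against 75.6, 68.2 and 78.3 CPM. In each of these dTAG replicate 1 was within or next to the range of the controls and dTAG replicate 3 was at a few counts. Snora78, which lies in both Snhg9 and Rps2 and may take reads of either, had 15.3, 7.98 and 10.48 CPM, against 27.2, 10.9 and 13.7 CPM, and Snora5c, of Tbrg4, had 20.3, 8.44 and 2.76 CPM, against 21.3, 21.3 and 25.3 CPM; these had the smallest unadjusted p among lower H/ACA members (adjusted p = 0.329 and 0.365, edgeR). Snora62, of the ribosomal protein gene Rpsa, kept more than most: it had 42.8, 38.5 and 21.5 CPM, against 45.1, 43.9 and 47.6 CPM. Snora36b and Snora19, printed above, were near the floor in the controls, at means of 0.221 and 0.984 CPM.

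Length and level went together weakly in the controls. Annotated lengths were 56 to 205 bases for H/ACA (median 120.5, n = 38) and 28 to 221 bases for box C/D (median 68, n = 75). Across detected members, Spearman's rho of length with the control level per kilobase was 0.444 for H/ACA (n = 35) and 0.247 for box C/D (n = 70), a description over genes that share libraries. The 5 box C/D snoRNAs of 120 bases or more (Snord15a, Snord15b, Snord17, Snord22 and Snord118) held 67.7% of the class, with a median of 507.7 CPM, while the 70 shorter ones had a median of 4.10 CPM. For H/ACA the medians were 27.7 CPM in the 20 longer and 16.3 CPM in the 18 shorter. Per kilobase, the highest control levels were 5432 CPM for Snord22, 5086 CPM for Snord15b and 1482 CPM for Snora21. How size selection of fragments acted on RNAs this short was not tested.

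**Figure D3:**
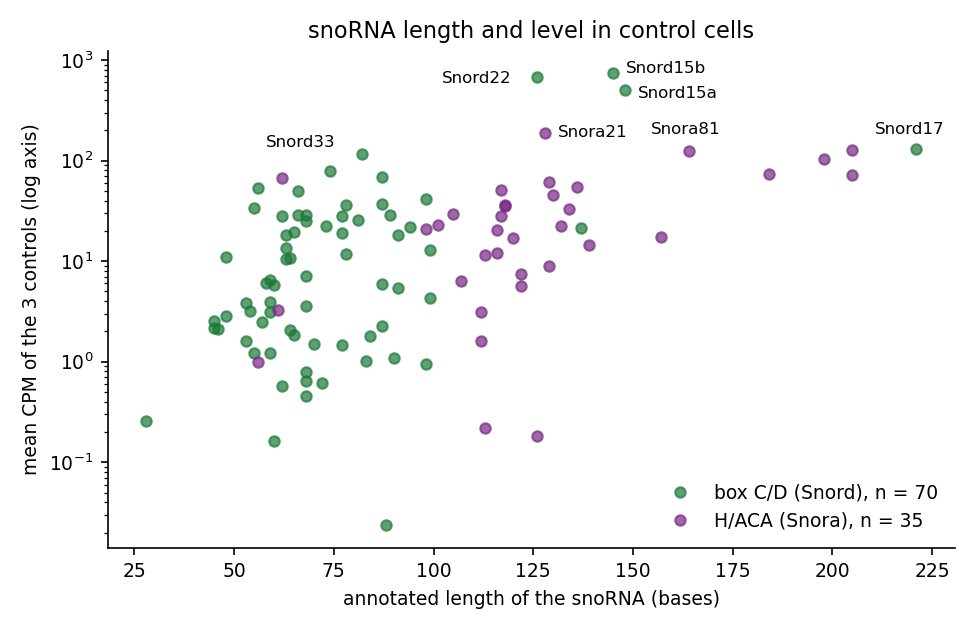
Annotated snoRNA length in bases (x axis) against the mean CPM of the 3 controls (y axis, log scale) for 70 box C/D and 35 H/ACA snoRNAs with a count in the controls. Snord15b, Snord22 and Snord15a lie above all others, and most box C/D points lie under 100 bases at low levels.

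Snhg genes, which give the spliced host transcripts, ranged from 0.211 to 62.9 CPM in the controls and did not move as a block. Snhg5 had 74.1, 46.0 and 12.1 CPM in dTAG replicates 1, 2 and 3, against 75.0, 50.1 and 63.7 CPM in the controls. Snhg1, host of U22, had 59.97, 32.4 and 6.07 CPM, against 55.5, 64.9 and 47.6 CPM, and Snhg6 had 38.4, 23.0 and 3.31 CPM, against 33.0, 32.7 and 34.6 CPM. For these 3 hosts dTAG replicate 1 was within or above the range of the controls and the other dTAG libraries were below every control. Snhg20 had 32.3, 34.7 and 16.0 CPM, against 36.9, 30.4 and 32.7 CPM, so only dTAG replicate 3 was apart on CPM, while with TMM scaling it had 40.95, 28.3 and 6.91 CPM, against 45.8, 40.99 and 43.7 CPM. Snhg12 had 44.5, 19.2 and 12.1 CPM, against 28.4, 28.7 and 33.8 CPM, with dTAG replicate 1 above and the others below all controls. Snhg3, host of U17, had 16.3, 13.1 and 3.86 CPM, against 18.5, 25.2 and 22.8 CPM, and was below the controls in each dTAG library.

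A second group of host genes was higher in dTAG replicate 3 on CPM. Snhg11 had 16.4, 26.7 and 59.0 CPM in dTAG replicates 1, 2 and 3, against 19.8, 15.4 and 18.5 CPM in the controls, but 20.8, 21.8 and 25.5 CPM against 24.6, 20.8 and 24.7 CPM with TMM scaling. Snhg17 had 17.5, 21.1 and 32.002 CPM, against 25.8, 13.8 and 17.1 CPM, and with TMM scaling its dTAG replicate 3 was at 13.8, below the 18.6 to 32.02 CPM of the controls, so that its direction turned. Snhg10 had 0.620, 7.04 and 17.1 CPM, against 2.04, 0.447 and 0.923 CPM, and remained above the controls in dTAG replicates 2 and 3 with TMM scaling, at 5.74 and 7.39 against at most 2.53 CPM (edgeR log2 fold change 1.64, SE 1.05, adjusted p = 0.380). Snhg18 had 2.32, 4.22 and 4.97 CPM, against 0.983, 1.34 and 1.63 CPM, and with TMM scaling 2.95, 3.45 and 2.15 CPM, against 1.22, 1.81 and 2.18 CPM, so that dTAG replicate 3 was then within the controls. Snhg9 had 10.4, 6.57 and 14.9 CPM, against 12.1, 10.9 and 14.6 CPM, and the groups overlapped on CPM. With TMM scaling it had 13.2, 5.36 and 6.44 CPM, against 15.0, 14.6 and 19.5 CPM, all dTAG libraries then being below every control. Without Snhg10, Snhg11, Snhg17 and Snhg18, a split chosen after their values were seen, the host sum was 355.9, 248.6 and 110.4 CPM, or 107.3%, 75.0% and 33.3% of the control mean. The 14 hosts at 5 CPM or more kept little of their order in dTAG replicate 3, with a Spearman's rho of -0.02 against the control means, compared with 0.951 in dTAG replicate 1 and 0.723 in dTAG replicate 2.

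**Figure D4:**
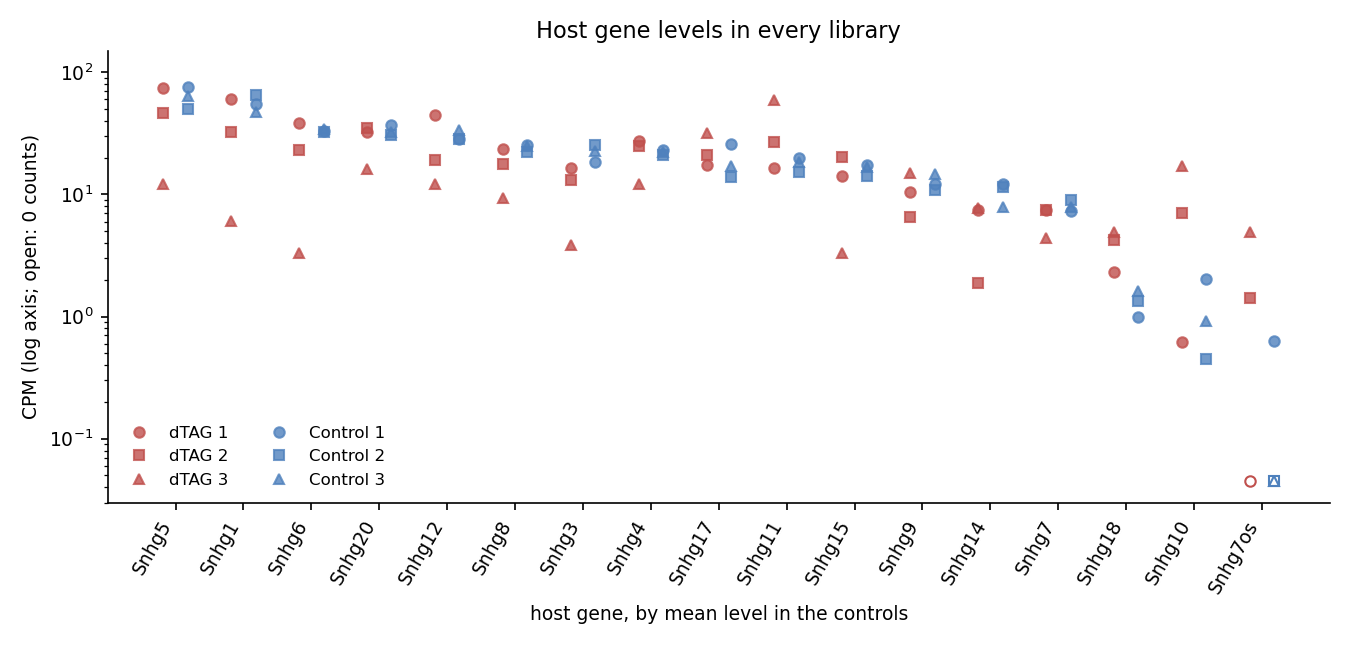
CPM of the 17 Snhg genes (y axis, log scale, open symbols for 0 counts) in each library, dTAG left of Control within each gene, ordered by mean control level. dTAG 1 stays near the controls for most genes, while dTAG 3 is low for Snhg5, Snhg1 and Snhg6 and, on this scale, high for Snhg10 and Snhg11, the last of which is at 25.5 CPM against at most 24.7 CPM in the controls with TMM scaling.

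The promoters of the host genes differed in their core motifs. Windows from 60 bases before to 30 bases after the annotated start were read for 15 of the Snhg genes from RefSeq GRCm38.p6, on the strand of the gene. TATAA stood in the 60 bases before the start of 4 of the 15 genes, or in 4 of their 18 windows. It stood 23 bases before the start in Snhg5 and 30 bases before it in Snhg7, Snhg8 and Snhg12. Of 32851 windows of all genes, 5.57% hold TATAA. A start at C followed by 4 bases of C or T is the form of a terminal oligopyrimidine start of translation-related genes. It stood in 2 of the 15 genes (Snhg7 and Snhg8), or in 2 of their 18 windows, against 2.51% of windows of all genes. Only the gene strand was searched, the motifs do not overlap, and capitals mark TATAA and the pyrimidine run that begins at the start. The 4 windows with TATAA and those of Snhg10 and Snhg11, host genes that were high in dTAG replicate 3 on CPM, are printed for comparison. With TMM scaling Snhg11 was near the controls there, at 25.5 CPM against at most 24.7 CPM.
The Snhg5 window is chr9:88522868-88522957 on the minus strand.
Snhg5: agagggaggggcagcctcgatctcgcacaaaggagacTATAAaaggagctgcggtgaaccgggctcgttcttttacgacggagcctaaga
The Snhg7 window is chr2:26640215-26640304 on the minus strand.
Snhg7: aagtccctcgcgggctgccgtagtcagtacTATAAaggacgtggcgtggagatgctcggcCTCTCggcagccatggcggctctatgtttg
The Snhg8 window is chr3:123508307-123508396 on the minus strand.
Snhg8: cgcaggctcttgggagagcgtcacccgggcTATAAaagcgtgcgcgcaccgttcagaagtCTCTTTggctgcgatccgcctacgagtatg
The Snhg12 window is chr4:132308618-132308707 on the plus strand.
Snhg12: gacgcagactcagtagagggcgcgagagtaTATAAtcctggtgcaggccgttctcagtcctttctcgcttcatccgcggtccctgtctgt
The Snhg10 window is chr12:105032250-105032339 on the minus strand.
Snhg10: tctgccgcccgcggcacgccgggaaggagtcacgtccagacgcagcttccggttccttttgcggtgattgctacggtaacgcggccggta
The Snhg11 window is chr2:158375653-158375742 on the plus strand.
Snhg11: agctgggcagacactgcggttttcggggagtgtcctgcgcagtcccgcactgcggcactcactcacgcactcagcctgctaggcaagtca

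Members with TATAA were not alike in level: dTAG replicate 3 stood at log2 ratios of -2.28 for Snhg5, -0.75 for Snhg7, -1.27 for Snhg8 and -1.25 for Snhg12. A match of letters is not a measured site.

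By RefSeq spans, 18 snoRNAs lay in 1 Snhg gene, 32 in a ribosomal protein gene, 45 in another protein-coding gene, 7 in another noncoding gene, 8 in several genes and 3 in none. Summed over the kind of host, snoRNAs in Snhg genes stood at 96.9%, 67.5% and 3.15% of the control mean in dTAG replicates 1, 2 and 3, and those in ribosomal protein genes at 101%, 66.3% and 4.93%. snoRNAs in other protein-coding genes stood at 96.3%, 76.6% and 66.0%, the last value holding Snora81, and those in other noncoding genes at 83.3%, 47.3% and 4.24%. In dTAG replicate 3 the sums in Snhg genes, ribosomal protein genes and other noncoding genes were all below 5% of the control mean.

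Setting each snoRNA beside its host gave 58 pairs with both at 5 CPM or more in the controls, over 42 hosts, and pairs of a single host are not independent. For the 10 pairs of 5 Snhg genes, the median log2 ratio of the snoRNA was -0.03, -0.49 and -4.15 in dTAG replicates 1, 2 and 3, and that of the host was 0.10, -0.63 and -1.25. In dTAG replicate 3 the snoRNA was lower relative to the controls than its host in 10 of 10 such pairs, in dTAG replicate 1 in 7 and in dTAG replicate 2 in 4. With each control set against the other controls, it was the lower in 1, 7 and 8 of the 10 in Control replicates 1, 2 and 3. The median gap of snoRNA minus host was -0.33, 0.10 and -2.61 in dTAG replicates 1, 2 and 3, and 0.30, -0.17 and -0.12 in the controls. Snhg12, at -1.25 in dTAG replicate 3, held Snora61 at -5.45, Snora16a at -4.38, Snora44 at -3.80 and Snord99 at -3.67. For the 25 pairs of ribosomal protein genes the order was the other way in dTAG replicate 3, with a median of -3.31 for the snoRNA and -4.18 for the host and the snoRNA the lower of the pair in 8 of 25. With a pseudocount of 1 CPM, a snoRNA of low control level cannot fall as far as an abundant host. The median is that of Snora70, at 8.93 CPM in the controls and 0 in dTAG replicate 3. Snord72, also at 0 there, stood at -2.77 beside its host Rpl37 at -5.30. How much of the order comes from this floor was not tested. In dTAG replicate 1 the snoRNA was the lower in 22 of 25 of these pairs, at medians of -0.01 and 0.10. The median gap of snoRNA minus host in those pairs was -0.14 there, and between -0.23 and 0.22 when each control was set against the other controls, with the snoRNA the lower in 5, 25 and 10 of the 25 pairs in Control replicates 1, 2 and 3. In the 20 pairs of other protein-coding genes the snoRNA was the lower in 13, 14 and 10 in dTAG replicates 1, 2 and 3. It was the lower in 9, 11 and 9 of these pairs in Control replicates 1, 2 and 3. Rps3, host of both U15 RNAs and a protein of the small ribosomal subunit, had 650, 337 and 34.8 CPM, against 623, 609 and 621 CPM. Gas5, a noncoding host with a name outside the Snhg series, had 427, 252 and 20.4 CPM, against 412, 380 and 416 CPM.

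**Figure D5:**
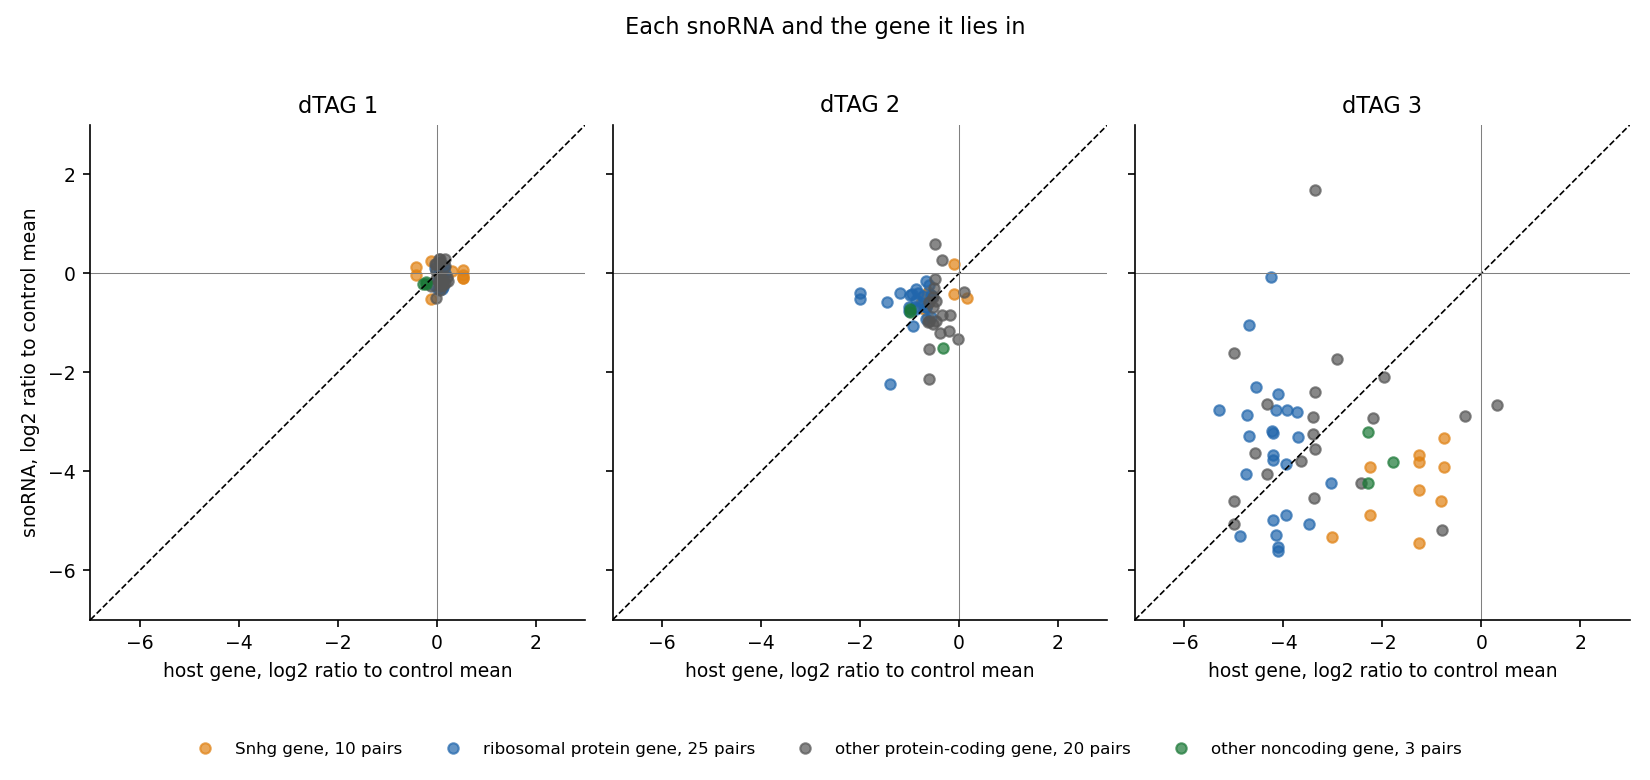
Log2 ratio to the control mean, on CPM + 1, of each snoRNA (y axis) and of the gene it lies in (x axis) for 58 pairs in dTAG 1, 2 and 3, coloured by the kind of host; the dashed line marks equal ratios. Pairs sit around 0 in dTAG 1, and in dTAG 3 all 10 Snhg pairs lie under the line while most ribosomal protein pairs lie above it. The added 1 CPM limits how far a snoRNA of low control level can fall.

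Genes of the same pathway were grouped in lists, and edgeR called 0 members of each of 10 lists over the 6 libraries and 0 with dTAG replicate 1 alone, against the shares of genes given above. The 4 proteins of box C/D particles summed to 798, 524 and 119 CPM in dTAG replicates 1, 2 and 3, against 773, 683 and 731 CPM in the controls, with a median log2 fold change of -1.05 relative to all genes. Fbl, the methyltransferase fibrillarin, had 59.3, 43.2 and 39.7 CPM, against 43.7, 55.7 and 54.4 CPM, and Nop58, a core scaffold that is itself a host, had 287, 195 and 25.9 CPM, against 303, 268 and 262 CPM. The 4 proteins of H/ACA particles summed to 391, 232 and 77.8 CPM, against 348, 346 and 350 CPM, with a relative median of -1.03. Dkc1, the synthase dyskerin, had 235, 140 and 11.04 CPM, against 203, 208 and 225 CPM, while Gar1, its partner, had 15.7, 18.8 and 48.6 CPM, against 14.8, 11.4 and 12.7 CPM. Relative medians were -0.79 for 13 assembly factors, -0.95 for 28 proteins of the small-subunit processome, in which the U3 snoRNA works, -1.22 for 49 hosts not named Snhg and -0.79 for 14 factors of nonsense-mediated decay. With dTAG replicate 1 alone these 6 lists had relative medians between -0.10 and 0.14.

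Other noncoding RNAs were also lower in dTAG replicates 2 and 3. The list of 35 other small noncoding RNAs, which holds the U3 rows that carry Rnu3 symbols, the spliceosomal RNAs, Rn7sk and others, summed to 29543, 19374 and 821 CPM in the dTAG libraries, against 29404, 26496 and 29435 CPM, with a relative median of -1.22 over 32 tested. Rnu3a, a U3 row, had 501, 344 and 14.4 CPM, against 589, 498 and 527 CPM; its near copies Rnu3b1 to Rnu3b4 may share reads with each other. Rmrp, the RNA of the RNase MRP that cuts the ribosomal RNA precursor, had 2951, 1857 and 76.1 CPM, against 3338, 2872 and 3019 CPM. The Rn45s row, named for the precursor, took 12.1%, 13.7% and 0.604% of counts, against 11.4%, 16.2% and 14.7%. The libraries were depleted of ribosomal RNA, so this share depends on what depletion left and is not a level of the precursor. In dTAG replicate 3 the snoRNAs and this row were low together, and in dTAG replicate 2 they were not. Terc, the telomerase RNA, which has an H/ACA domain, had 11.5, 13.1 and 24.8 CPM, against 6.11, 13.0 and 12.8 CPM. Whether the content of dTAG replicates 2 and 3 produced these differences was not tested.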

How the data were processed

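RNA-seq libraries of 3 dTAG and 3 Control samples were analysed, and 83 of the 89 samples of the series were not used. In the table that the authors deposited, each value is a raw count of reads per gene and library, without scaling. Per the labels' protocols, column-purified total RNA received ERCC spike-ins, libraries were depleted of ribosomal RNA, stranded, and sequenced as paired ends. Whether column purification lost RNAs as short as snoRNAs was not tested, and reads of a snoRNA and of an intron of its host cannot be told apart. Per the submitters' processing notes, STAR 2.7.2b, featureCounts, edgeR and limma were used with build mm10; whether counting used the strand is not given in the sources used here, so overlapping genes are uncertain.

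Rows without a symbol, 903 of 27179, entered neither library sizes nor tests; their share of counts was 2.33%, 6.67% and 14.6% in dTAG replicates 1, 2 and 3, and 2.20%, 2.37% and 2.33% in the controls. CPM are counts per 1000000 counts in named rows, and log2 ratios use a pseudocount of 1 CPM. The main test was edgeR 4.0.16 in R 4.3.3 (quasi-likelihood, two-sided, TMM, filterByExpr with minimum count 10 and total 15, group as the only term), adjusted by Benjamini-Hochberg over all tested genes at 0.05, and was checked on simulated data. TMM factors were 0.789, 1.225 and 2.315 in dTAG replicates 1, 2 and 3, and 0.805, 0.742 and 0.749 in the controls. No library pair was alike enough to be a copy: the smallest chi-square per gene was 8.87. Hosts, lengths and sequences come from RefSeq GRCm38.p6, a host being a gene whose span contains the snoRNA's; the table of spans gives no strand. Alternatives were RLE scaling, library totals, no filter, 1 CPM in 3 libraries, DESeq2 1.42.0, limma-voom 3.58.1, a replicate block, leaving out each library, and dTAG replicate 1 alone.

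The members and lists were chosen with earlier results of these data known. Members named are the 5 most abundant per class, the 2 of smallest p per class and direction, those chosen for a part in ribosomal RNA maturation other than methylation or pseudouridylation, and imprinted ones. Others named, such as Snora34, Snora62, Snord2, Snhg3, Snhg11 and Snhg17, were chosen after their values were seen.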

Additional observations from a re-analysis of the deposited data

How the results depend on the processing

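With all 6 libraries, 0 genes were called at an adjusted p under 0.05 with TMM, RLE scaling, library totals, the 1 CPM filter and limma-voom. There were 1398 calls with no filter on low counts (all higher) and 5196 with DESeq2 (5180 higher, 16 lower), and 16 with dTAG replicate 1 alone against the controls (11 higher, 5 lower). Leaving out a library gave 0 to 13222 calls, the highest without dTAG replicate 1, and no other library moved it from 0. Members called were 0 under every alternative except without dTAG replicate 1, where they were 67, so leaving out a library gave 0 to 67.

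Class medians relative to all tested genes kept their sign under all alternatives. For H/ACA the median of -1.25 became -1.88 with library totals, -2.14 with no filter, -1.13 with the 1 CPM filter, -2.36 with DESeq2, -1.85 with limma-voom and -0.10 with dTAG replicate 1 alone, and lay between -3.19 and -0.60 when a library was left out. For box C/D the median of -1.26 became -1.89 with library totals, -2.17 with no filter, -2.40 with DESeq2, -1.81 with limma-voom and -0.14 with dTAG replicate 1 alone, and lay between -3.20 and -0.62. For Snhg the median of -0.98 became -1.40 with library totals, -1.91 with no filter, -0.86 with the 1 CPM filter, -2.08 with DESeq2 and -0.14 with dTAG replicate 1 alone, and lay between -2.39 and -0.39. The lowest values were without dTAG replicate 1 and the highest without dTAG replicate 3. The median of all genes itself was 0.16 with TMM, 1.11 with library totals, 1.02 with no filter and 1.24 with DESeq2. Without dTAG replicate 1 that median was 0.68, over 22093 tested genes, so the relative class medians there also reflect a higher reference. The mean of the dTAG sums was 69.96% of the control mean for H/ACA, 51.6% with TMM, 57.1% without Snora81 (chosen after seeing the data) and 55.1% to 86.6% with a library left out. It was 55.8% for box C/D, 34.4% to 81.6% with a library left out, and 83.03% for Snhg, 58.1% with TMM and 71.6% to 94.4% with a library left out.

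Replicate numbers did not pair the libraries: same-numbered libraries had correlations of 0.052, -0.017 and 0.025 in their deviations from the group means. With the replicate block, 13 genes (all higher) and 0 members were called, and the class medians were -2.14 for H/ACA, -2.04 for box C/D and -1.29 for Snhg.

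Of 459 values for 33 named members under 14 settings, 421 kept direction and side of the threshold, 19 passed the threshold, all without dTAG replicate 1, and 19 changed sign. The log2 fold change of Snora81, 0.02, was -0.16 with no filter, -0.039 with DESeq2, -0.028 with dTAG replicate 1 alone and -0.25 to -0.012 with a library left out. That of Snord35b, 0.28, lay between -0.38 (without dTAG replicate 1) and 0.49 with a library left out, and was 0.77 with dTAG replicate 1 alone. With dTAG replicate 1 alone the sign turned for Snhg5 (0.16), Snhg1 (0.012), Snhg6 (0.11), Snhg12 (0.47), Snhg10 (-0.92), Snora73b (0.059), Snord64 (0.22), Snord13 (0.10) and Snord14e (0.18). The cause of these shifts was not tested. A member under about 1.66 CPM could not be told from 0 in dTAG replicate 3.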
